A study of Zea mays with 24 samples.

Results

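Leaf transcriptomes of the transgenic maize line Y7-1 and of its parent line were compared under moderate drought. Y7-1 is a T4-generation line made in the inbred Y478 (Ye478) that overexpresses ZmPMP3g from a constitutive viral promoter and carries Basta resistance. Y7-1 is 1 transgenic line, so what the construct does and what else differs between this line and Y478 cannot be told apart. The comparison used 5 of the 24 libraries of the study, 2 of Y7-1 and 3 of Y478, each from the second fully expanded leaf of 1 plant, labelled as V5, the stage at which water was withheld. Moderate drought was a pot mix moisture with an upper threshold of 50%, against 70% under control, and sampling came 9 days after that threshold. No plant of this comparison received exogenous ABA. The paper states a tap water spray for seedlings in control treatment, and does not state it separately for plants under drought alone. The other 3 treatments of the study, control, control-exogenous ABA (15 mg/L on the leaves) and moderate drought-exogenous ABA, each had 3 plants of either line and served as a check of each difference.

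PMP3 proteins, also called RCI2 or LTI6 proteins, are very small hydrophobic proteins of the plasma membrane, known from yeast and plants for a role in membrane potential and ion homeostasis under salt, cold and drought. A drying leaf makes ABA, which closes stomata and, through PYL receptors, PP2C phosphatases, SnRK2 kinases and bZIP factors, turns on genes for protective proteins such as dehydrins and for osmolytes. Aquaporins, antioxidant enzymes, heat shock proteins and NAC, WRKY, MYB and AP2-EREBP transcription factors are further parts of that response.

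The values are FPKM, reads per gene scaled by gene length and library size. Recovered reads ranged from 16247993 to 17889160 in the libraries under moderate drought, and 1 read per kilobase of gene was worth 0.0506 to 0.0556 FPKM. Of 46430 genes, 23978 reached an FPKM of 0.5 in 3 or more of the 24 libraries, and these were tested with limma as log2(FPKM + 0.5). On this scale the change of low genes is understated, and for a gene listed at 0 in every library of a line no fold change is given here. A DEG had both an adjusted p below 0.05 and a log2 fold change of 1 or more in size, and a list member was counted as higher or lower by the adjusted p alone, adjusted across every gene tested. The p-values measure the spread between plants within groups, pooled over all 8 groups, so most of that spread comes from groups outside this comparison, in which Y7-1 had 2 plants. Of 29 mesophyll genes of the C4 pathway, 22 were tested, and all of these were above 0 in every library under moderate drought. Their FPKM summed to 3629 and 4292 in Y7-1 and 2004 to 4755 in Y478. The 22 had passed the filter on the same leaf libraries, so being above 0 is no check of the labelled tissue.

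The third library labelled Y7-1 moderate drought went against its label and was left out of the test. Under moderate drought, 175 genes were read only in Y7-1 (FPKM of at least 1 in both libraries, under 0.1 in all 3 of Y478) and 111 only in Y478. The library labelled replicate 3 read 3 of the 175 and 104 of the 111. It was not used to choose these genes, but it had been left out for this same pattern. Its counts therefore describe the reason for leaving it out and are no separate check. In the other 3 treatments, libraries of Y7-1 read 109 to 145 of the 175 (median 139) and 8 to 13 of the 111, while libraries of Y478 read 0 to 3 and 94 to 106. Y7-1 control replicate 2 was the lowest of its line, with 109. By these genes the library labelled replicate 3 sits with the Y478 libraries, as the plot of genes read in 1 line only shows. Its values are printed beside each result, in parentheses after those of Y7-1 replicates 1 and 2.

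**Figure D1:**
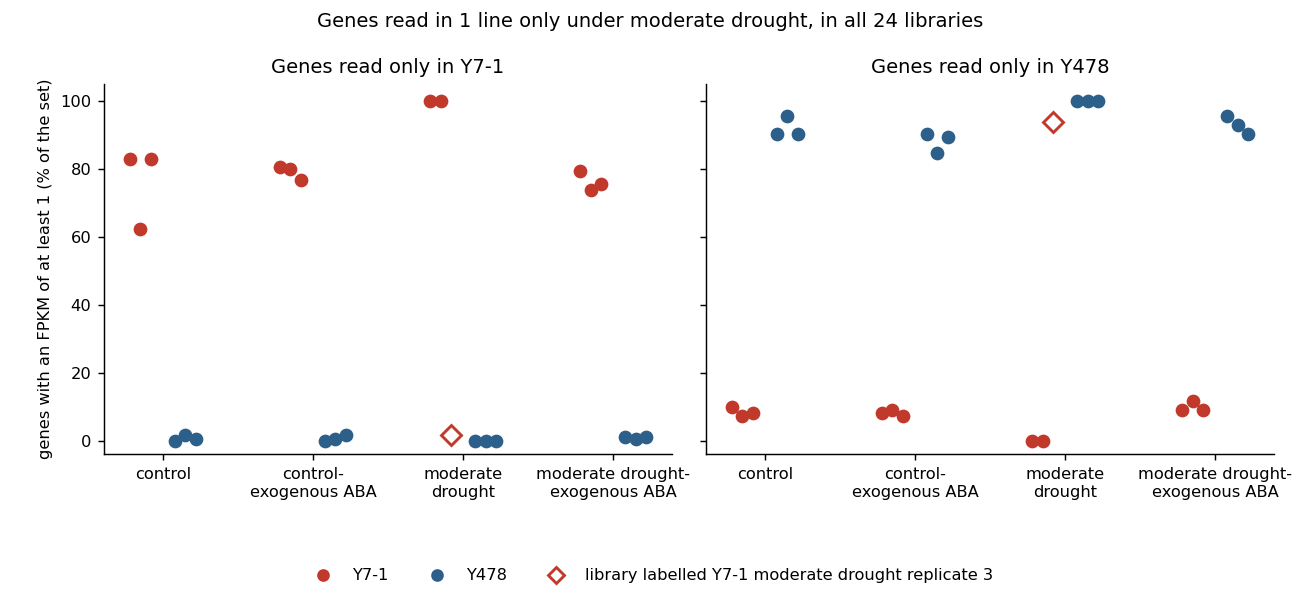
Share of the genes read only in Y7-1 (left, 175 genes) and only in Y478 (right, 111 genes) under moderate drought that had an FPKM of at least 1, in each of 24 libraries (1 point each, in % of the set, by treatment). Both sets keep to their line in the other treatments, and the open diamond, the library labelled Y7-1 moderate drought replicate 3, lies at 1.71% on the left and 93.7% on the right, among the Y478 libraries.

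The lines differed in 2270 DEGs under moderate drought (9.47% of the genes tested), 936 higher (3.90%) and 1334 lower in Y7-1 (5.56%). At an adjusted p under 0.05 and any fold change, 1362 genes were higher (5.68%) and 1706 lower (7.11%). With the library labelled replicate 3 in the Y7-1 group, 233 DEGs remained (0.972%), 72 higher and 161 lower, of which 231 were among the 2270; 99 genes were then higher (0.413%) and 178 lower (0.742%) at an adjusted p under 0.05. That library lay closer to the Y478 mean than to the Y7-1 mean in 1959 of the 2270 (86.3%). Of the DEGs, 2261 had no overlap between the 2 and 3 libraries, where 43.6% of all genes tested had none. With only the libraries of this comparison in the fit there were 1036 DEGs, 526 higher and 510 lower, and 190 of 312 calls of genes chosen by the naming rule were lost. Without Y478 replicate 1 there were 1515 DEGs, and 1320 higher and 1040 lower DEGs stood in limma-voom on the recovered reads, so which direction held more DEGs depended on the method. Median log2 fold change over all genes was -0.01.

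Several of the genes furthest apart were listed at 0 in Y7-1. Chlorophyllide a oxygenase (Zm00001d004531), which makes chlorophyll b, had an FPKM of 0 and 0 (78.7) in Y7-1 against 53.5, 51.5 and 53.9 in Y478 (limma adjusted p = 4.66e-15). Nudix hydrolase 14 (Zm00001d037169), of a family that cleaves nucleoside diphosphates linked to other groups, had 0 and 0 (23.9) against 26.6, 26.5 and 16.7 (adjusted p = 3.01e-12). A protein kinase with Kelch repeats (Zm00001d036925) had 0 and 0 (15.2) against 71.0, 66.3 and 27.0 (adjusted p = 1.31e-08). All 3 were read in each Y478 library and in the library labelled replicate 3, and their difference was of the same size under control, where Y7-1 had a mean of 0, 0 and 0 and Y478 of 50.7, 22.5 and 46.9. Read in Y7-1 at a trace only were actin-depolymerizing factor 10 (Zm00001d034643), which cuts actin filaments, at 0.0619 and 0 (62.2) against 113, 61.9 and 32.6 (adjusted p = 1.22e-08), and an EF hand protein (Zm00001d037173) at 0.176 and 0.173 (29.5) against 18.8, 49.4 and 47.2 (log2 fold change -5.73, standard error 0.56, adjusted p = 1.33e-06).

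Another set of lower genes stood apart by less, or not beyond the test, under control. Sucrose transporter7 (Zm00001d048311), which carries sucrose across membranes, had 0.181 and 0.333 (27.2) against 50.5, 30.6 and 17.9, a log2 fold change of -5.35 ± 0.61 (SE; adjusted p = 9.09e-06), where under control the lines had means of 4.77 and 8.29. Expansin-like A2 (Zm00001d048344), of a family that loosens cell walls, had 0.293 and 0.288 (10.7) against 34.3, 25.8 and 14 (-4.91 ± 0.79, adjusted p = 4.37e-04), and control means of 7.2 and 8.30. Glutaredoxin-C13 (Zm00001d040836), of a family of thiol oxidoreductases, had 8.89 and 0.823 (34.9) against 186, 141 and 84.9 (-5.22 ± 0.90, adjusted p = 8.69e-04). The lines did not overlap in any of these, which was a condition for choosing the genes of largest fold change. In each the library labelled replicate 3 was nearer to Y478. GEM-like protein 8 (Zm00001d025900) ranged widely within Y478, with 254, 118 and 19.5 against 1.59 and 0.866 (7.82) in Y7-1 (-5.64 ± 0.89, adjusted p = 3.62e-04), and was still called with that library (adjusted p = 0.0150). Lichenase-2 (Zm00001d038049), a glucan hydrolase, had 67.5, 37.0 and 3.34 against 0 and 0.0296 (0.206) (adjusted p = 0.0176), and lost its call without any 1 of 4 libraries, among them Y478 replicate 1 (adjusted p = 0.0799) and Y7-1 replicate 1 (adjusted p = 0.0859).

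The genes furthest higher in Y7-1 had varied roles. A chlorophyll a-b binding protein 6 gene (Zm00001d024372), part of the antenna of photosystem I, was read at 40.9 and 26.5 (0) in Y7-1 and listed at 0 in all 3 Y478 libraries (adjusted p = 1.37e-07). An NADPH-dependent pterin aldehyde reductase gene (Zm00001d050775), of folate salvage, had 21.0 and 18.0 (0) against 0 in Y478 (adjusted p = 7.21e-15) and Y7-1 control plants a mean of 17.8. Erwinia induced protein 2 (Zm00001d051803) had 21.0 and 24.4 (0) against 0 (adjusted p = 2.14e-10). These genes were read in Y7-1 and not in Y478 or in the library labelled replicate 3. Why no reads were counted there was not tested. A type 2 metallothionein (Zm00001d039914), a cysteine-rich metal binding protein, had 48.5 and 31.2 (0) against 0.0627, 0.184 and 0.943 (5.58 ± 0.37, adjusted p = 6.95e-09). Cytochrome P450 CYP81D8 (Zm00001d029183), of an oxygenase family, had 13.9 and 50.1 (0) against 0.0835, 0.109 and 0.149 (5.46 ± 0.55, adjusted p = 2.12e-06), and a sucrose nonfermenting 4-like gene (Zm00001d011253), of the regulatory subunits of SnRK1 kinases, 18.3 and 37.0 (0) against 0.0132, 0 and 0.0426 (5.68 ± 0.38, adjusted p = 6.85e-09). Ferritin-2 (Zm00001d023223), the iron store of plastids, had 41.0 and 32.5 (0.435) against 0.0402, 0.196 and 0.216 (adjusted p = 0.0229), a call lost without Y478 replicate 1 (adjusted p = 0.0661), Y7-1 replicate 1 (0.109) or Y7-1 replicate 2 (0.0918).

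**Figure D2:**
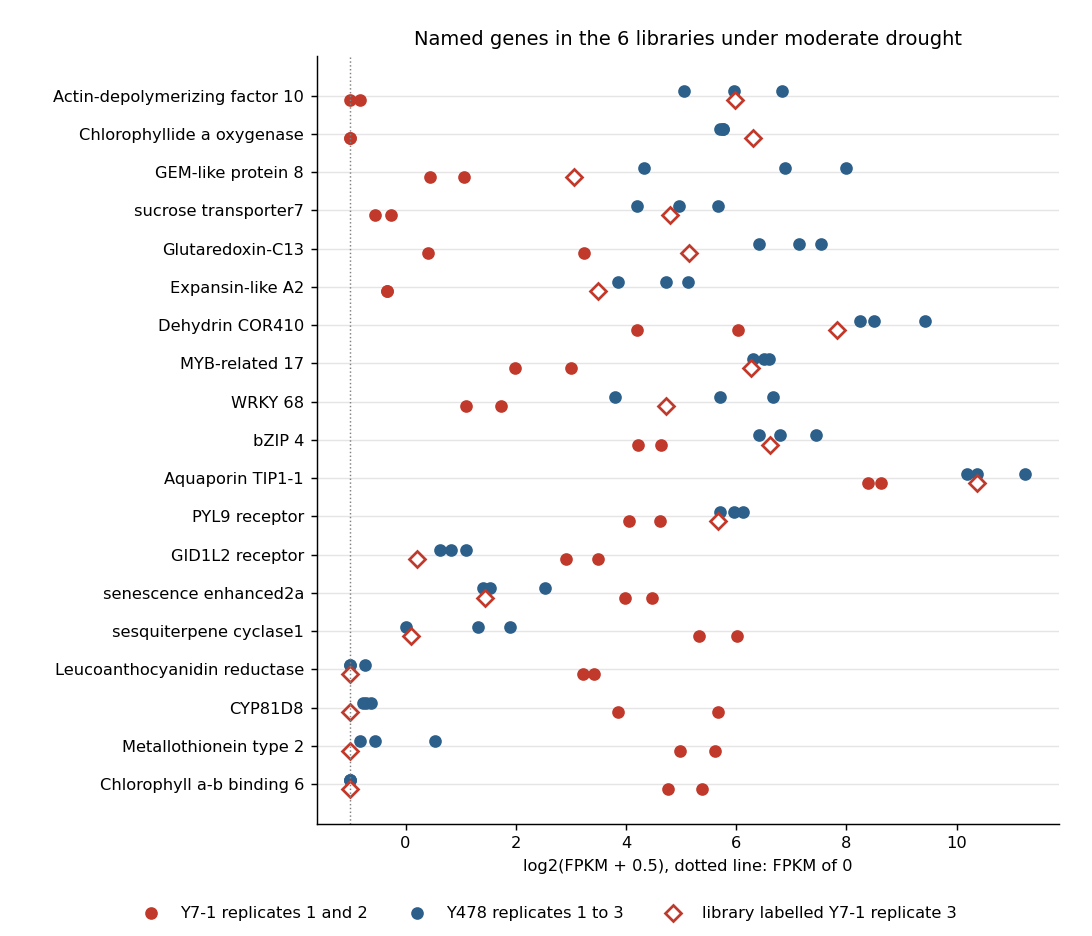
Level of 19 named genes, as log2(FPKM + 0.5), in the libraries under moderate drought (1 point per library; Y7-1 replicates 1 and 2 in red, Y478 in blue, the library labelled Y7-1 replicate 3 as an open diamond). In each row the 2 red points lie on 1 side of the 3 blue points, a condition for choosing the genes of largest fold change. The open diamond lies closer to the mean of the blue points in all rows but that of GEM-like protein 8.

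By FPKM, no tested PMP3 gene was called higher in Y7-1 than in Y478 under moderate drought. The table lists 9 family members, of which 7 were tested, and 0 were higher and 3 lower in Y7-1, with a median log2 fold change of -2.10 and 6 of 7 below 0. With the library labelled replicate 3, 0 members were called and the median was -1.29. With only the libraries of this comparison in the fit 1 was lower, NaCl stress protein1 (adjusted p = 0.0444), and regulator7 (0.0721) and regulator4 (0.222) were not called. The homolog of ZmPMP3g, named NaCl stress protein1 (Zm00001d024778, chromosome 10, 87401369 to 87401545 in the coordinates of the table), had an FPKM of 572 and 684 (3435) in Y7-1 against 3233, 2212 and 2724 in Y478. Both Y7-1 libraries lay below every Y478 library, and the library labelled replicate 3 was the highest of all. The log2 fold change was -2.10 (SE 0.51, adjusted p = 0.0107), and -1.29 (adjusted p = 0.241) with that library. It was -1.98 (adjusted p = 0.0770) without Y7-1 replicate 1. An exact permutation test gave p = 0.2, two-sided, the smallest that 2 plants against 3 can give. Under control the lines had 299 ± 61.2 and 308 ± 119 (SD, n = 3 plants each; log2 fold change 0.01, adjusted p = 0.994), with exogenous ABA the fold change was -0.80 without drought (adjusted p = 0.209) and -0.62 with it (adjusted p = 0.317). The difference between the drought and control fold changes, -2.11, had an adjusted p of 0.393. By quantitative PCR of leaves, the paper reports significantly higher ZmPMP3g expression in the transgenic plants than in their wild types. The sources used here do not say whether reads of the construct are counted on this gene. Its level is therefore no check of the transgene or of that result.

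Among the other PMP3 genes, proteolipid membrane potential regulator7 (Zm00001d008200) was 0 and 7.70 (93.3) in Y7-1 against 128, 110 and 122 in Y478 (log2 fold change -5.89, SE 0.81, adjusted p = 9.54e-05; -4.05, adjusted p = 0.0648, with the library labelled replicate 3). Under control Y7-1 had 195, 22.5 and 93.7 and Y478 195, 152 and 132, so the lines overlapped there (adjusted p = 0.354). Regulator4 (Zm00001d028718) was 1.80 and 2.71 (20.1) against 41.7, 10.2 and 4.85 (-2.31, SE 0.67, adjusted p = 0.0314), a call lost without Y478 replicate 1 (adjusted p = 0.142), Y7-1 replicate 1 (0.163) or Y7-1 replicate 2 (0.0868). Regulator8 (Zm00001d040544) differed between the Y7-1 plants, 15.3 and 0.176 (12.2), against 17, 17.7 and 14.9 (adjusted p = 0.105). Regulator2 (Zm00001d006329; 0.16, adjusted p = 0.748) and regulator3 (Zm00001d045096; -0.06, adjusted p = 0.917) had similar values in the lines, and Zm00001d046834 was near 0 in 4 of the 5 libraries.

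Drought against control in Y478, which uses the same Y478 libraries, gives the other side of some of these values. There NaCl stress protein1 stood at 3.20 on the log2 scale (adjusted p = 9.54e-04), regulator4 of 3.52 (adjusted p = 0.00280) and regulator7 of -0.40 (adjusted p = 0.832). In Y7-1, without the library labelled replicate 3, the same fold changes were 1.09 (adjusted p = 0.431), 1.6 (adjusted p = 0.371) and -5.21 (adjusted p = 0.0202). Over all genes, Y478 had 1148 DEGs of moderate drought (672 higher, 476 lower) and Y7-1 20 (9 higher, 11 lower), with 3 against 3 and 2 against 3 plants.

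**Figure D3:**
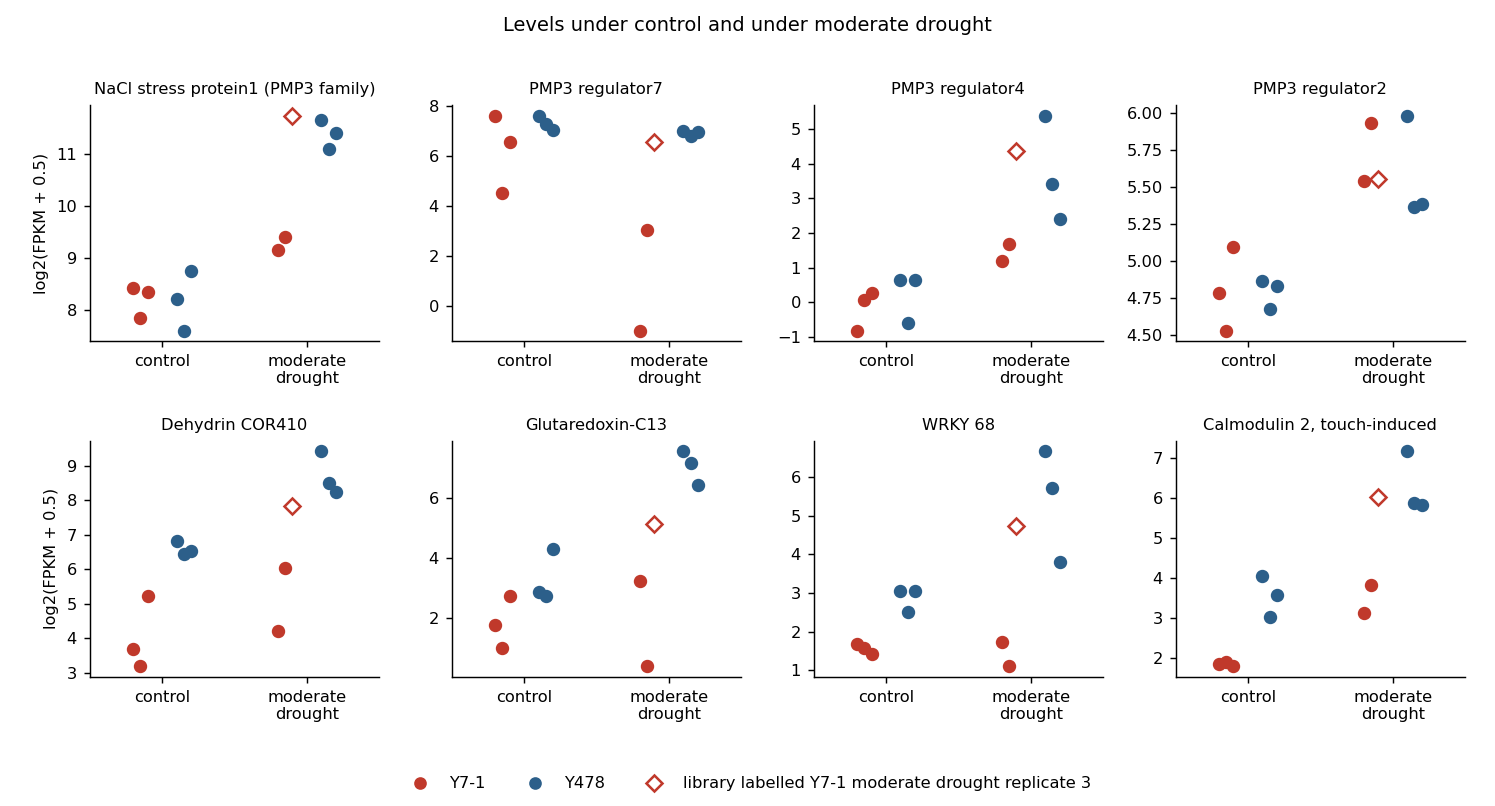
Level of 4 PMP3 genes and 4 other genes, as log2(FPKM + 0.5) with a scale of its own in each panel, under control and moderate drought (1 point per library; the open diamond is the library labelled Y7-1 moderate drought replicate 3). NaCl stress protein1 overlaps between the lines under control and, under moderate drought, lies higher in the 3 Y478 libraries and the open diamond than in the 2 Y7-1 libraries.

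Most of the line difference under moderate drought was also present without drought. The other 3 treatments share no library with this comparison, and the lines had 2534 DEGs under control (10.6%), 3804 under control-exogenous ABA (15.9%) and 4521 under moderate drought-exogenous ABA (18.9%). Of the 2270 moderate drought DEGs, 2133 (94.0%) had the same sign under control, where 71.9% of all tested genes did, 2146 (94.5%, against 71.9%) under control-exogenous ABA and 2214 (97.5%, against 76.6%) under moderate drought-exogenous ABA. The same call was made for 1128 (49.7%), 1331 (58.6%) and 1600 (70.5%), and the opposite call for 2, 4 and 1. In all of the other 3 treatments 880 (38.8%) had the same call, and in none 405 (17.8%), 166 higher and 239 lower in Y7-1. The median of the higher DEGs was 1.65 on the log2 scale under moderate drought and 1.24 under control, and that of the lower DEGs -1.78 and -1.13; a gene chosen by its drought value tends to be less extreme elsewhere. With the library labelled replicate 3, 92.7%, 91.0% and 98.3% of the 233 DEGs had the same sign.

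**Figure D4:**
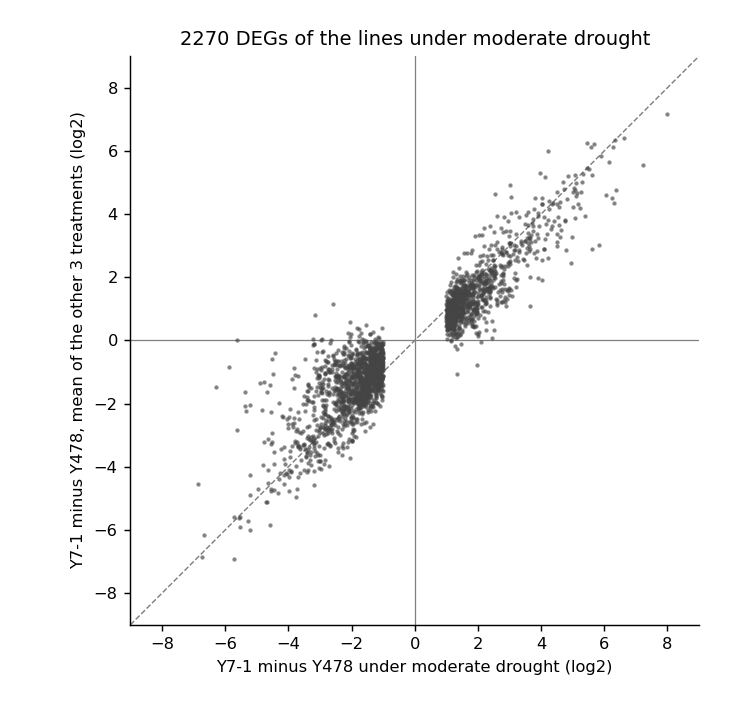
Log2 fold change of Y7-1 against Y478 for the 2270 DEGs, under moderate drought (x axis) and as the mean of the other 3 treatments (y axis), 1 point per gene; the dashed line marks equal values. Nearly all points have the same sign on both axes, and many genes lower in Y7-1 lie above the dashed line.

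A line difference particular to moderate drought was found for hardly any gene. The test of the drought fold change against the control fold change called 1 gene (0.00417%) and that against the mean of the other 3 treatments 0 (0%) by limma. At an unadjusted p under 0.05 and the same minimum fold change there were 1317 and 1004 genes, and limma-voom called 0 and 1. Precision was lower here, with a median standard error of 0.44 and 0.37 against 0.33 for the line difference itself. These counts rested on single libraries: without Y478 moderate drought replicate 3 the first test called 44 genes, and without Y7-1 moderate drought replicate 1 or 2 it called 21 or 22 and the second 37 or 29. The gene called, Zm00001d013165, shown for being the one called and so chosen after its values were seen, has no name or description, was listed at 0 in all 6 libraries under moderate drought and under control had 5.27, 3.74 and 3.31 in Y7-1 and 0 in Y478. Sucrose transporter7, Expansin-like A2 and regulator7, whose control means stood closer than their drought values, were therefore not shown to differ between drought and control.

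Gene lists were read against the shares of all tested genes, 5.68% higher and 7.11% lower. Where limma-voom counts of a list are given below, limma-voom had 1320 DEGs higher and 1040 lower over all genes. Of 54 lists, 40 had more members lower than higher and 10 the reverse (26 with more lower once the library labelled replicate 3 was in). Counts moved with single libraries, so for many lists the lowest count with 1 library left out is given. They fell further when the fit held only the libraries of this comparison, where DEGs over all genes fell from 2270 to 1036. NAC genes then had 0 lower members in place of 15, WRKY 2 of 17, calcium sensors and kinases 6 of 26 and AP2-EREBP 3 of 14. Lower bZIP genes were 3 of 13, dehydrins and LEA proteins 2 of 8, glutathione transferases 2 of 11 and aquaporins 1 of 6. Heat shock proteins had 12 lower of 17 and cytosolic ribosomal proteins 12 higher of 38. Some lists no longer had their direction. Glutathione transferases had 2 higher and 2 lower, and osmolytes and sugars 1 and 1. Nitrogen genes had 2 higher and 1 lower, bHLH genes 2 and 1, UDP-glycosyltransferases 3 and 1 and wax, cutin and lipid transfer genes 1 and 2. The share of all genes at an adjusted p under 0.05 is not given for that fit. In that fit the calls of NCED8, NCED5, SRK2C, COR410, both LEA genes, P5CS, CINV2, both glutathione transferases, the 17.4 kDa heat shock gene, TIP1-1, plasma membrane intrinsic protein1, NAC20, WRKY68, BIM3, calmodulin 2, calcium-dependent protein kinase 3, lipoxygenase9, LOG, nitrite reductase and senescence enhanced2a, all described below, were lost, as were those of Glutaredoxin-C13, GEM-like protein 8 and Lichenase-2, at adjusted p from 0.0536 to 0.228. As these are bulk leaves, fewer cells of a type and less RNA per cell cannot be told apart.

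ABA genes were mixed. Of 25 tested genes of ABA synthesis and breakdown, 3 were higher and 1 lower (median log2 fold change -0.32; 0 and 0 with the library labelled replicate 3; 1 higher at the fewest). Aldehyde oxidase3 (Zm00001d034385), which makes ABA from its aldehyde, was higher at 1.62 and 1.08 (0.272) against 0.0995, 0.184 and 0.178 (1.49, adjusted p = 1.26e-04). The dioxygenases that cut carotenoids in the committed step went both ways: NCED8 (Zm00001d017766) had 161 and 50.2 (34.6) against 10.5, 30.7 and 40.0 (1.91, adjusted p = 0.0401), and NCED5 (Zm00001d018819) 0.851 and 1.99 (8.55) against 33.5, 13.5 and 5.4 (-2.94, adjusted p = 0.0113). Both calls were lost without Y478 replicate 1 (adjusted p = 0.179 and 0.0597) or Y7-1 replicate 1 (0.388 and 0.108), and that of NCED8 also without Y478 replicate 2 (0.0520). Of 28 signaling genes, 0 were higher and 3 lower (median -0.28; 2 at the fewest). They were bZIP4 (Zm00001d018178), an ABI5-like factor, at 18.1 and 24.3 (97.4) against 175, 111 and 84.3 (-2.46, adjusted p = 0.00159), the receptor PYL9 (Zm00001d016105) at 23.9 and 16.2 (50.5) against 69.6, 51.9 and 61.4 (-1.6, adjusted p = 0.00591) and the kinase SRK2C (Zm00001d022179) at 7.71 and 8.85 (9.86) against 22.8, 14 and 13.9 (-0.95, adjusted p = 0.0105). PYL9 lost its call without Y7-1 replicate 2 (adjusted p = 0.0816) and SRK2C without Y7-1 replicate 1 (0.0871) or Y478 replicate 1 (0.0539). Of 87 PP2C phosphatases, which in part brake ABA signaling, 3 were higher and 11 lower (median -0.16; 4 lower without Y478 replicate 1).

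Protective proteins were lower in Y7-1 more often than higher. Of 47 dehydrins and LEA proteins, which shield proteins and membranes in drying cells, 0 were higher and 8 lower (median -0.39; 4 lower with the library labelled replicate 3; 3 without Y7-1 replicate 1). Dehydrin COR410 (Zm00001d017547) had 17.9 and 65.1 (227) against 683, 361 and 303 (-3.60, SE 0.69, adjusted p = 0.00215; 0.0556 without Y7-1 replicate 1). A group 3 LEA gene (Zm00001d043709) had 0.958 and 0.94 (0.653) against 7.12, 7.6 and 2.80 (-2.02, adjusted p = 0.00330), and another LEA gene (Zm00001d024500) 0.341 and 0.334 (0.464) against 3.17, 3.89 and 1.59 (-1.95, adjusted p = 0.00201). In the last 2 the library labelled replicate 3 was as low as the other Y7-1 libraries, and they were called with it too (adjusted p = 0.0147 and 0.0150). Of 73 genes for osmolytes and sugars, 4 were higher and 11 lower (median -0.19; 3 lower without Y478 replicate 1). Proline oxidase (Zm00001d047124), which breaks proline down, was higher at 2.52 and 4.45 (0.0818) against 0.222, 0 and 0 (2.77, adjusted p = 3.04e-05), as was a P5CS gene (Zm00001d012391), which makes proline, at 213 and 175 (47.0) against 23.8, 79.0 and 82.8 (1.83, adjusted p = 0.0281; 0.132 without Y478 replicate 1, 0.142 without Y7-1 replicate 1 and 0.0894 without Y7-1 replicate 2). Invertase CINV2 (Zm00001d004804), which splits sucrose, was lower at 0.959 and 1.02 (1.03) against 7.87, 6.42 and 3.19 (-2.01, adjusted p = 0.00338).

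Antioxidant and detoxifying enzymes differed by list. Class III peroxidases were 3 higher and 3 lower of 49 (6.12% lower), and ascorbate and glutathione enzymes 1 and 3 of 32 (9.38% lower). Of 17 superoxide dismutases and catalases 0 were higher and 6 lower (median -0.39; 1 without Y7-1 replicate 1 and 1 with the library labelled replicate 3). Superoxide dismutase9 (Zm00001d047479) had 9.80 and 3.64 (17.7) against 48.1, 41.8 and 41.8 (-2.76, adjusted p = 0.0130; 0.148 without Y7-1 replicate 2). Of 50 glutathione transferases 4 were higher and 11 lower (median -0.57; 4 lower without Y7-1 replicate 1), with glutathione transferase42 (Zm00001d029699) at 0.212 and 0 (2.89) against 20.2, 5.55 and 4.12 (-3.80, adjusted p = 0.00184) and glutathione transferase18 (Zm00001d041772) higher at 5.28 and 43.5 (0) against 0.879, 0 and 0 (4.51, adjusted p = 6.17e-04). Of 128 heat shock proteins 5 were higher and 17 lower (median -0.34; 9 lower without Y478 replicate 1, 0 with the library labelled replicate 3). A 17.4 kDa class I gene (Zm00001d028557) had 9.54 and 80.3 (183) against 398, 259 and 201 (-3.27, adjusted p = 0.00223; 0.0660 without Y7-1 replicate 1), while heat shock protein17.2 (Zm00001d039935) had 171 and 146 (6.43) against 7.23, 3.43 and 2.22 (5.18, adjusted p = 0.0312), lost without any 1 library, at the most 0.129 without Y7-1 replicate 1. Small heat shock genes and glutathione transferases are families of near-identical copies between which reads can be split, so the values of single members are uncertain.

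Of 27 aquaporins, water channels, 1 was higher and 6 lower (median -0.82; 1 lower without Y7-1 replicate 1 and 0 with the library labelled replicate 3). The vacuolar channel TIP1-1 (Zm00001d027652) had 333 and 394 (1315) against 2431, 1325 and 1161 (-2.10, SE 0.43, adjusted p = 0.00366) and was lower in Y7-1 in the other treatments too, by -1.69 under control (adjusted p = 0.00648). Plasma membrane intrinsic protein1 (Zm00001d002690) had 372 and 606 (1107) against 2821, 1817 and 1371 (-2.01, adjusted p = 0.00289; 0.0540 without Y7-1 replicate 1). Of 90 genes of potassium, sodium and proton transport 3 were higher and 10 lower (5 lower without Y478 replicate 1), and 5 and 5 by limma-voom. Membrane H(+)-ATPase1 (Zm00001d007775), a proton pump, was listed at 0 and 0 (14.3) against 7.93, 11.8 and 15.5 (adjusted p = 8.79e-10). Sodium/hydrogen exchanger 2 (Zm00001d028330), of antiporters that move sodium into vacuoles, had 0.126 and 0.0781 (17.3) against 12.2, 15.4 and 13.5 (-4.55, adjusted p = 0.00102), with -5.06 under control and 0.23 (adjusted p = 0.843) under moderate drought-exogenous ABA.

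Among transcription factors, NAC and WRKY genes had the largest shares of lower members of the families listed when all groups were in the limma fit. Of 70 NAC genes 1 was higher and 15 lower (21.4% lower; median -0.57; 3 lower with the library labelled replicate 3; 4 without Y478 replicate 1). NAC20 (Zm00001d038221) had 0.818 and 1.06 (3.00) against 23.6, 8.41 and 6 (-2.96, adjusted p = 0.00144) and was called with that library (adjusted p = 0.0293). Of 93 WRKY genes 2 were higher and 17 lower (18.3% lower; median -0.43; 2 lower with that library; 7 without Y478 replicate 1). WRKY68 (Zm00001d011133) had 2.83 and 1.65 (26.1) against 101, 51.9 and 13.5 (-3.97, adjusted p = 1.33e-04), WRKY14 (Zm00001d026252) 5.4 and 8.01 (21.4) against 32.4, 33.9 and 22.0 (-2.05, adjusted p = 2.03e-04), and WRKY75 (Zm00001d029564) was higher at 16.3 and 8.96 (1.12) against 1.69, 2.19 and 0.981 (2.62, adjusted p = 3.16e-04). Y478 replicate 1 was the highest plant in NAC20 and WRKY68. Limma-voom called 4 NAC genes higher and 9 lower and 2 WRKY genes higher and 9 lower, and 6 and 10 bZIP and 5 and 11 AP2-EREBP genes, so the order of the families changed.

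Other families lay nearer to the share of all genes, 7.11% lower. Of 113 AP2-EREBP genes 4 were higher and 14 lower (median -0.40; 6 lower without Y7-1 replicate 2), of 100 bZIP genes 5 and 13 (5 lower without Y478 replicate 1), of 88 MYB genes 0 and 8 (9.09% lower), of 67 MYB-related genes 1 and 6 (8.96%), of 110 bHLH genes 4 and 8 (7.27%) and of 89 homeobox genes 6 and 10 (11.2% lower, 6.74% higher). MYB-related 17 (Zm00001d044409) had 3.46 and 7.55 (76.8) against 89.8, 78.8 and 96.3 (-3.97, SE 0.27, adjusted p = 6.84e-09), and -3.86, -4.56 and -4.51 in the other 3 treatments. The bHLH factor BIM3 (Zm00001d017908), of a family that acts in brassinosteroid responses, was higher at 25.5 and 17.2 (23) against 5.90, 6.70 and 10.6 (1.42, adjusted p = 0.00185). This was a gene in which the library labelled replicate 3 sat with Y7-1, and the call held with it (adjusted p = 0.0115). MADS39 (Zm00001d050897), an AGL16-like factor, had 13.6 and 8.68 (0.198) against 0, 0.172 and 0.0270 (4.34, adjusted p = 8.79e-10), and the BEL1-like homeobox gene 64 (Zm00001d027802) 12.1 and 11 (3.70) against 3.56, 3.58 and 3.29 (1.6, adjusted p = 4.52e-06).

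**Figure D5:**
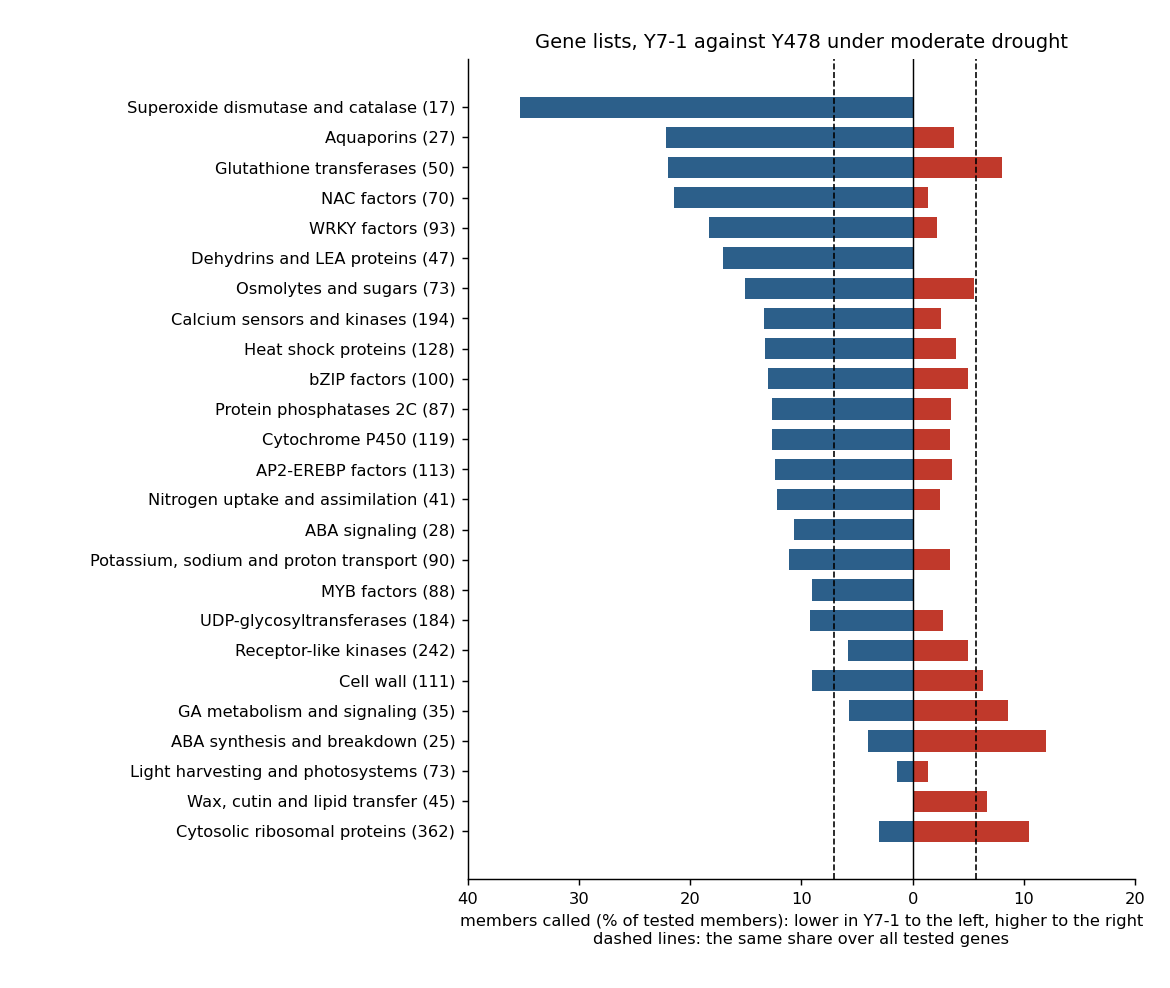
Members of 25 gene lists called lower (blue, to the left) or higher (red, to the right) in Y7-1 under moderate drought, in % of the tested members, whose number follows each name; dashed lines mark the shares of all tested genes, 7.11% lower and 5.68% higher. Superoxide dismutases and catalases, aquaporins, glutathione transferases and NAC genes reach far to the left, and cytosolic ribosomal proteins reach past the dashed line on the right.

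Calcium sensors and kinases had 5 members higher and 26 lower of 194 (13.4% lower; median -0.24; 3 lower with the library labelled replicate 3; 15 without Y7-1 replicate 2). A touch-induced calmodulin 2 gene (Zm00001d008573), a calcium sensor, had 8.13 and 13.6 (63.9) against 142, 57.3 and 56.2 (-2.81, adjusted p = 2.36e-04), and calcium-dependent protein kinase 3 (Zm00001d044185) 0.535 and 3.24 (15.2) against 11.7, 11.8 and 12.6 (-2.67, adjusted p = 6.10e-05). Receptor-like kinases split, 12 higher and 14 lower of 242, and limma-voom gave 20 and 7, so their direction depended on the method. The same flip was seen in F-box and related genes, 7 higher and 12 lower of 214, and 9 and 7 by limma-voom. Limma-voom also turned the balance over all genes, with 1320 DEGs higher and 1040 lower. The flips are therefore not shown to be particular to these lists. The resistance gene RPM1 (Zm00001d034555), an immune receptor, had 0.106 and 0.0841 (7.34) against 8.25, 8.30 and 8.31 (-3.89, adjusted p = 1.91e-07).

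Gibberellin genes split, 3 higher and 2 lower of 35. Both directions held a gene described as the receptor GID1L2: Zm00001d050837 had 15.3 and 24.6 (143) against 174, 137 and 155 (-2.96, adjusted p = 8.91e-06), and Zm00001d016895 had 6.98 and 10.7 (0.659) against 1.65, 1.26 and 1.05 (2.34, adjusted p = 9.90e-05). Jasmonate genes were 1 higher and 6 lower of 58, among them lipoxygenase9 (Zm00001d027893), of the enzymes that oxidize fatty acids, at 2.32 and 3.77 (6.15) against 19.2, 11.7 and 6.30 (-1.76, adjusted p = 0.00220; 0.0450 with the library labelled replicate 3). Auxin genes were 4 higher and 11 lower of 123 (2 lower without Y7-1 replicate 1), cytokinin genes 3 and 2 of 64 and ethylene genes 3 and 4 of 30 (3 and 2 by limma-voom). A LOG gene (Zm00001d038862), which frees active cytokinin, had 13.7 and 18.1 (57.3) against 141, 81.5 and 43.6 (-2.30, adjusted p = 0.00122).

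Few light harvesting genes differed, and C4 cycle genes lay nearer to the share of all genes. Of 73 genes of light harvesting and photosystems 1 was higher and 1 lower (1.37% each). Of 51 genes of the C4 cycle and Rubisco 1 was higher (1.96%) and 5 lower (9.80%, against 7.11% of all genes), with 2 lower without Y478 replicate 1. Beta carbonic anhydrase 4 (Zm00001d044095), which supplies bicarbonate, had 3.27 and 2.30 (15.7) against 52.3, 17.9 and 30.2 (-3.26, adjusted p = 3.98e-05; 0.0293 with the library labelled replicate 3), and an NADP-dependent malic enzyme 4 gene (Zm00001d003090) was listed at 0 and 0 (24.9) against 11.6, 12.1 and 14.2 (adjusted p = 6.40e-10). Of 41 nitrogen genes 1 was higher and 5 lower (median -0.52; 1 lower without Y478 replicate 2; 2 higher and 1 lower by limma-voom), with a nitrite reductase (Zm00001d018161) at 5.28 and 1.52 (87.7) against 20.9, 30.6 and 45.2 (-3.19, adjusted p = 0.00474; 0.0883 without Y7-1 replicate 2).

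Secondary metabolism and cell wall genes went both ways. Of 117 phenylpropanoid and flavonoid genes 5 were higher and 8 lower. Leucoanthocyanidin reductase (Zm00001d026370) and chalcone isomerase 3 (Zm00001d016144), of the flavonoid pathway, were higher at 10.2 and 8.86 (0) against 0.0994, 0 and 0 (4.23, adjusted p = 2.00e-08) and at 8.62 and 15.9 (1.37) against 1.62, 1.65 and 1.58 (2.53, adjusted p = 7.43e-05). Of 21 terpenoid and benzoxazinoid genes 2 were higher and 1 lower. Terpene synthase7 (Zm00001d032230) had 69.5 and 82.8 (7.59) against 12.3, 23.1 and 16.8 (2.14, adjusted p = 0.00466), and sesquiterpene cyclase1 (Zm00001d045054) 64.3 and 39.8 (0.577) against 0.507, 1.98 and 3.23 (4.6, adjusted p = 0.00388). Of 111 cell wall genes 7 were higher and 10 lower (7 and 6 by limma-voom; 2 higher without Y478 replicate 1, 3 lower without Y7-1 replicate 2). The pectin methyltransferase QUA2 gene (Zm00001d052213) had 0.354 and 0.408 (24.5) against 27.2, 23.4 and 22.3 (-4.81, SE 0.31, adjusted p = 3.50e-09). Cytochrome P450 genes were 4 higher and 15 lower of 119 and UDP-glycosyltransferases 5 and 17 of 184.

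Cytosolic ribosomal proteins had more members higher than lower. Of 362 cytosolic ribosomal protein genes, 38 were higher and 11 lower (10.5% higher; median 0.28; 3 and 1 with the library labelled replicate 3; 19 higher without Y478 replicate 1), and limma-voom called 48 and 5. A 60S protein L15-2 gene (Zm00001d002628) had 9.18 and 7.16 (0) against 0.286, 0 and 0 (3.89, adjusted p = 1.10e-08). Genes described as 40S protein S4-3 lay on both sides: Zm00001d031743 had 25.7 and 16.6 (0.0615) against 0, 0 and 0.134 (5.29, adjusted p = 9.76e-04), whereas Zm00001d045775 was listed at 0 and 0 (3.50) against 6.05, 4.70 and 3.25 (adjusted p = 6.90e-06). Such copies share reads, and how the counting split them is not given in the sources used here. Wax, cutin and lipid transfer genes were 3 higher and 0 lower of 45, and plastid-type ribosomal proteins 1 and 0 of 47.

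Lists that the study drew from the same experiment are not independent evidence of its direction. Of the genes it lists for the lines under control 60 were tested, 3 higher and 18 lower (median -0.66; 2 lower with the library labelled replicate 3), and of those for moderate drought-exogenous ABA 25 were tested, 6 higher and 3 lower. Markers of other cells and states were summed per library. Phloem genes summed to an FPKM of 331 and 534 in Y7-1 (390 in the library labelled replicate 3) and 253 to 288 in Y478, bundle sheath genes to 7363 and 7915 (7686) and 8032 to 9424, and organelle-encoded genes to 50.6 and 71.4 (315) and 83.8 to 110. Defence genes summed to 143 and 192 (155) against 141 to 734, cysteine protease and autophagy genes to 1932 and 2184 (1916) against 1603 to 2460, and core histone, cyclin and replication genes to 2265 and 3021 (3386) against 2675 to 3765. Of these sums the first 3 did not overlap between the lines, and 43.6% of single genes tested did not. Sums follow the most abundant members, so the mean log2(FPKM + 0.5) is given too. For phloem it was 2.74 and 3.07 (3.63) against 3.14 to 3.52 in Y478, opposite to the sum, with 1 of 9 members higher and 1 lower. For bundle sheath it was 4.49 and 4.69 (5.00) against 5.10 to 5.32. Organelle-encoded genes overlapped, 0.03 and -0.22 (0.81) against -0.04 to 0.10. The library labelled replicate 3 lay between the Y7-1 phloem and bundle sheath sums but above both means. The part of these markers in the gene results was not tested. Senescence enhanced2a (Zm00001d011174), a cysteine protease of aging leaves, was higher at 15.2 and 21.7 (2.23) against 5.29, 2.16 and 2.39 (2.40, adjusted p = 3.56e-05).

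Line differences lay on all chromosomes and were denser in some stretches. The share of tested genes that were DEGs ran from 7.13% on chromosome 9 to 13% on chromosome 6. In 209 windows of 10 Mb with at least 20 tested genes, the share had a median of 8.2% and a range of 0% to 28.4%, with 4 windows at 0 and 6 above 20%. On chromosome 6 from 100 to 110 Mb, 31 of 109 genes were DEGs (28.4%), 8 higher and 23 lower, and 2.8% with the library labelled replicate 3. The same window held 29.4% under control, 30.3% under control-exogenous ABA and 24.8% under moderate drought-exogenous ABA, where the medians over windows were 9.6%, 15.2% and 18.4%. Chromosome 7 from 20 to 30 Mb had 21 of 82 (25.6%) and chromosome 8 from 30 to 40 Mb 16 of 63 (25.4%). Of the 175 genes read only in Y7-1, 32 lay on chromosome 5 and 30 on chromosome 4. Of the 111 read only in Y478, 20 lay on chromosome 1 and 19 on chromosome 6. Chromosomes 5, 4, 1 and 6 held 2854, 2377, 3644 and 1998 of the 23978 genes tested, and clustering was not tested. The coordinates are those of the table, whose build is not given in the sources used here.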

How the data were processed

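RNA of maize leaves was sequenced from 24 plants, 3 per line and treatment. The authors prepared libraries with an NEBNext Ultra kit, sequenced them on a NovaSeq and deposited 1 table of FPKM per gene, 1 column per plant. HISAT2 2.0.5 is named in the submitters' processing notes, the build named there is not of maize, and the counter, the strand setting and the annotation release are not given in the sources used here, so overlapping and antisense genes cannot be separated. FPKM times gene length gave whole reads (within 0.05) for 100% of values. Replicates differed beyond sampling noise (chi-square per degree of freedom 16.47 to 199.27).

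Y7-1 and Y478 were compared with limma 3.58.1 (R 4.3.3) on log2(FPKM + 0.5), with 8 group means and 23 libraries in 1 fit, a trended prior and Benjamini-Hochberg adjustment over 23978 genes. Single values were also tested with an exact permutation test (scipy 1.17.1). The fit was tested on simulated data. Named genes were the tested PMP3 members, the 15 higher and 15 lower described DEGs of largest fold change with no overlap, and up to 4 members per list and direction, of which some are left out. The members and lists were chosen with earlier results of these data known.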

Additional observations from a re-analysis of the deposited data

Results flagged for a closer look

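The library labelled Y7-1 moderate drought replicate 3, which no comparison above uses in its main value, read 104 of the 111 genes read only in Y478 under moderate drought, above the 8 to 13 that other Y7-1 libraries read in the other treatments. This is the pattern for which it was left out.

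Zm00001d013165 was the gene whose line difference under moderate drought differed from that under control: the difference of the log2 fold changes was -3.18 (limma adjusted p = 5.16e-04). It was listed at 0 in all libraries under moderate drought, and in Y7-1 had 5.27, 3.74 and 3.31 FPKM under control and 1.01, 1.89 and 2.80 under control-exogenous ABA, with 0 in Y478.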

How the results depend on the processing

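The count of 2270 DEGs was 233 with the library labelled Y7-1 moderate drought replicate 3 and 1036 when the fit held no other group (526 higher, 510 lower, 914 of them shared). It ran from 1515 without Y478 replicate 1 to 2346 without Y478 replicate 3, and from 1892 to 2416 over the other settings. No pairing of plants by replicate number was seen (correlations of deviations -0.09 and -0.03). With 2 plants of Y7-1 their deviations mirror each other, so these values cannot exclude a pairing. A fit with the replicate number as a block (replicate block) gave 2196. Lists with more members lower were 26 in place of 40 with that library. The fold change of the ZmPMP3g homolog was -1.29 with it, and -2.25 to -1.97 with 1 library left out, past the threshold in all but that without Y7-1 replicate 1 (-1.98).

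Genes unlike control were 2 with that library, 14 with array weights, 0 by limma-voom, 3 without a filter, 3 with a pseudocount of 0.1, 5 with only the 4 groups under drought and control (an alternative chosen after seeing the data) and 1 to 44 with 1 library left out. Genes unlike the mean of the other 3 treatments were 7 with that library, 16 with array weights, 1 by limma-voom, 3 without a filter, 1 with a pseudocount of 0.1, 2 after quantile normalization and 0 to 37 with 1 library left out. The causes were not tested. The excess of lower over higher DEGs was lost when the fit held no other group and turned round by limma-voom (1320 higher, 1040 lower). With no other group in the fit 190 of 312 named-gene calls were lost. The 2 plants of Y7-1 limit the precision of every value.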
